A study of Mus musculus with 4 samples.

Results

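Genes of matrix turnover, 10 of the 32285 genes in the files, were followed in single cells of the mouse liver. They were taken by symbol from a fixed list, with no threshold on their values. Mmp12, Mmp13, Mmp9, Mmp8 and Mmp2 encode secreted matrix metalloproteinases, Mmp14 a metalloproteinase held in the plasma membrane, Timp1, Timp2 and Timp3 the tissue inhibitors of these enzymes, and Adam8 a membrane metalloproteinase that sheds surface proteins. Levels are given as CPM, the UMIs (distinct RNA molecules counted) of a gene per 1000000 UMIs of the summed cells of 1 type in 1 library.

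The mice were male C57BL/6J, 5 weeks old at arrival and acclimatised for 1 week. The NCD group stayed on normal chow. The HFD group received a high-fat diet for 14 weeks and then, over 8 weeks, distilled water by mouth once daily, which the NCD group also received. The JQF group had the same 14 weeks of high-fat diet. Jiangtang Qingre Formula, herbal granules mixed with a decoction of red yeast rice, was then given to it by mouth over those 8 weeks. The diet of the HFD and JQF groups during these 8 weeks is not stated by the study. There were 4 libraries, 1 from the NCD group, 2 from the HFD group and 1 from the JQF group, each from 1 liver, so NCD and JQF had no replicate of their own. In every test their spread was assumed to be that of the HFD pair. The fit also drew the spread of each gene towards that of all genes of the type, and in endothelial cells it did so fully. The comparison of HFD with NCD addresses the diet and that of JQF with HFD addresses the formula, and both use the same HFD libraries.

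In the liver, metalloproteinases cut collagen, elastin, basement membrane and many surface or secreted proteins, and are made as inactive precursors. The TIMP proteins bind the active site of the mature enzymes, and TIMP2 also takes part in the activation of pro-MMP2 by MMP14 at the cell surface. Macrophage elastase (MMP12) is known from macrophages, neutrophil collagenase (MMP8) and gelatinase B (MMP9) are stored in neutrophil granules, and gelatinase A (MMP2) is known from stellate cells and fibroblasts. These are statements of background and not results.

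The genes of 3 secreted proteases lie close together. In GRCm38, Mmp13 (chr9:7272514-7283331), Mmp12 (chr9:7344381-7369499) and Mmp8 (chr9:7558456-7568485) are on the plus strand of chromosome 9 within 296 kb that also hold Mmp1b, Mmp3 and Mmp10. The end of Mmp12 overlaps Mmp1b, which is on the opposite strand. The other members are Mmp9 (chr2:164940780-164955850), Mmp14 (chr14:54431612-54445364), Mmp2 (chr8:92827291-92853420), Timp1 (chrX:20870166-20874735), Timp2 (chr11:118301069-118355740), Timp3 (chr10:86300372-86349506) and Adam8 (chr7:139978932-139992562). Timp1 and Timp3 lie within Syn1 and Syn3 on the other strand, and Cep295nl lies within Timp2 on the same strand, so Timp2 counts may be split with Cep295nl.

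Mmp13 was among the 5 genes whose levels were most like those of Mmp12, as described further on, and of their starts those with a motif match are shown. RefSeq (GRCm38.p6) listed a start for 8 of the 10 members, with 9 starts in all, and none was listed for Mmp9 and Mmp2. In the 250 bases before each start, TGANTCA, which reads the same on both strands and is the motif known for AP-1 factors, was found for 2 of the 9 starts against 6.75% of 32851 starts of all genes. These were the start of Mmp13 and the second of 2 starts of Mmp12, which lies in an intron of longer annotated Mmp12 transcripts. TATAAA, searched on both strands, was found for 1 of the 9, Mmp13, against 12.4% of all starts. Below are the bases of chr9:7347124-7347373 and chr9:7272264-7272513, plus strand, 5′ to 3′, with motif matches in capitals.
Mmp12 second start: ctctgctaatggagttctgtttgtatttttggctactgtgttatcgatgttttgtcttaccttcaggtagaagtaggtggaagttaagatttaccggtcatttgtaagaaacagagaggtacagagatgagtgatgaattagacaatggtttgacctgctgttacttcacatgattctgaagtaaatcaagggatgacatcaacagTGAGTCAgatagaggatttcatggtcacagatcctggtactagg
Mmp13 start: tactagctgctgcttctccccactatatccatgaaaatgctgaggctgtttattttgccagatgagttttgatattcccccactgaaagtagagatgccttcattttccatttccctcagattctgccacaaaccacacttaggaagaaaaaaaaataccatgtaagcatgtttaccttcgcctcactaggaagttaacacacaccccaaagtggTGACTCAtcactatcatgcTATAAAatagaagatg
TGANTCA begins 44 bases before the second start of Mmp12 and 35 bases before that of Mmp13, where TATAAA begins at 16 bases. The first start of Mmp12 had no match. A match of letters is a description of the sequence and was not tested as a binding site.

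Cells were kept when they had 500 or more genes and no more than 20% of UMIs from mitochondrial genes, and were not doublets by marker genes. Doublets removed were 252 in NCD 1, 121 in HFD 1, 340 in HFD 2 and 338 in JQF 1. Kept cells were assigned to types by marker genes, none of which was a member. Kept cells numbered 5723 in NCD 1, 6395 in HFD 1, 9919 in HFD 2 and 8202 in JQF 1, with median depths of 12748, 7511, 7649 and 8629 UMIs, and 7.76% to 15.3% of them stayed without a type. The labels call the samples immune cells, yet Ptprc, the pan-leukocyte gene, had a UMI in 37.3% of NCD cells against 83.1% to 91.4% in the other libraries, and endothelial cells made up 60.7% of NCD cells and 1.66% to 11.6% of the others. The NCD library had few of several types, among them 51 monocytes and 153 macrophages. Cells of 8 types reached 50 or more in every library and were tested, and other types are described only. Libraries shared 14 to 30 barcodes per pair. The makeup of NCD 1 and the diet cannot be told apart, since it is the only chow library and could not be left out of a comparison with chow.

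Over these 8 types, 56 of the 80 pairs of member and type had enough UMIs to be tested (24 did not). Between HFD and NCD, 15 pairs from 6 members passed an adjusted p of 0.05 (edgeR quasi-likelihood, Benjamini-Hochberg). Of the tested pairs, 7 (12.5%) were higher in HFD, where 5.43% of all tests of all genes were, and 8 (14.3%) were lower, where 7.60% of all tests were. A pair could pass the filter on low counts through the group where it was high, so the shares describe the tested pairs and not all members. The members were also chosen with earlier results of these data known. Of the called pairs of HFD and NCD, Mmp12 gave 4 higher and 1 lower, and Timp3 gave 5 lower. Between JQF and HFD, 2 pairs passed, of which 1 (1.79%) was higher, where 0.283% of all tests were, and 1 (1.79%) was lower, where 0.229% were. The median log2 fold change of the tested pairs was 0.24 for HFD over NCD, against 0.077 over all genes, and 0.044 for JQF over HFD, against −0.0050.

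Mmp12, macrophage elastase, was higher in macrophages after the high-fat diet. Its level there was 100 CPM in NCD 1, 1013 CPM in HFD 1, 1086 CPM in HFD 2 and 1030 CPM in JQF 1. The 3 libraries of mice given the high-fat diet were close to one another and far above the chow library. The log2 fold change of HFD over NCD was 3.46 ± 0.25 (approximate SE, n = 2 against 1, edgeR adjusted p = 0.0277, where 8.87% of genes in macrophages were called). JQF and HFD differed by −0.0060 ± 0.20 on the log2 scale (adjusted p = 0.999), in a comparison in which 0.00764% of genes were called.

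The share of macrophages with Mmp12 differed in the same way. Mmp12 was detected in 7.84% of 153, 42.3% of 613, 45.3% of 2283 and 35.9% of 463 macrophages of NCD 1, HFD 1, HFD 2 and JQF 1. With every cell thinned to 2000 UMIs the shares were 3.52% (exact binomial 95% interval 1.15 to 8.03), 28.7% (25.1 to 32.5), 31.0% (29.0 to 32.9) and 22.4% (18.6 to 26.6), with 11, 10, 77 and 17 shallower cells left out. The interval of the NCD library lay below the others, and that of JQF 1 lay below that of HFD 2 and overlapped that of HFD 1. These intervals cover counting error only. In T cells, which served as the comparison for free RNA, the thinned shares were 0% of 711 cells (which allows up to 0.422%), 0.599%, 3.02% and 0.145%.

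Few cells carried most of the Mmp12 RNA. In NCD 1, 12 macrophages held all 256 UMIs and 1 of them held 90. The 10% of macrophages with most Mmp12 held 77.0% of its UMIs in HFD 1, 75.9% in HFD 2 and 88.4% in JQF 1, where the highest single cells had 496, 600 and 281 UMIs. Without the top cell of each library the log2 fold change of HFD over NCD was 4.03 (adjusted p = 0.0279). Over whole libraries Mmp12 stood at 4.47, 145, 341 and 75.0 CPM, and macrophages held 65.6%, 95.8%, 94.9% and 91.5% of its UMIs. Macrophages were 2.67%, 9.59%, 23.0% and 5.64% of kept cells, and the whole-library levels had the same order as these shares.

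**Figure D1:**
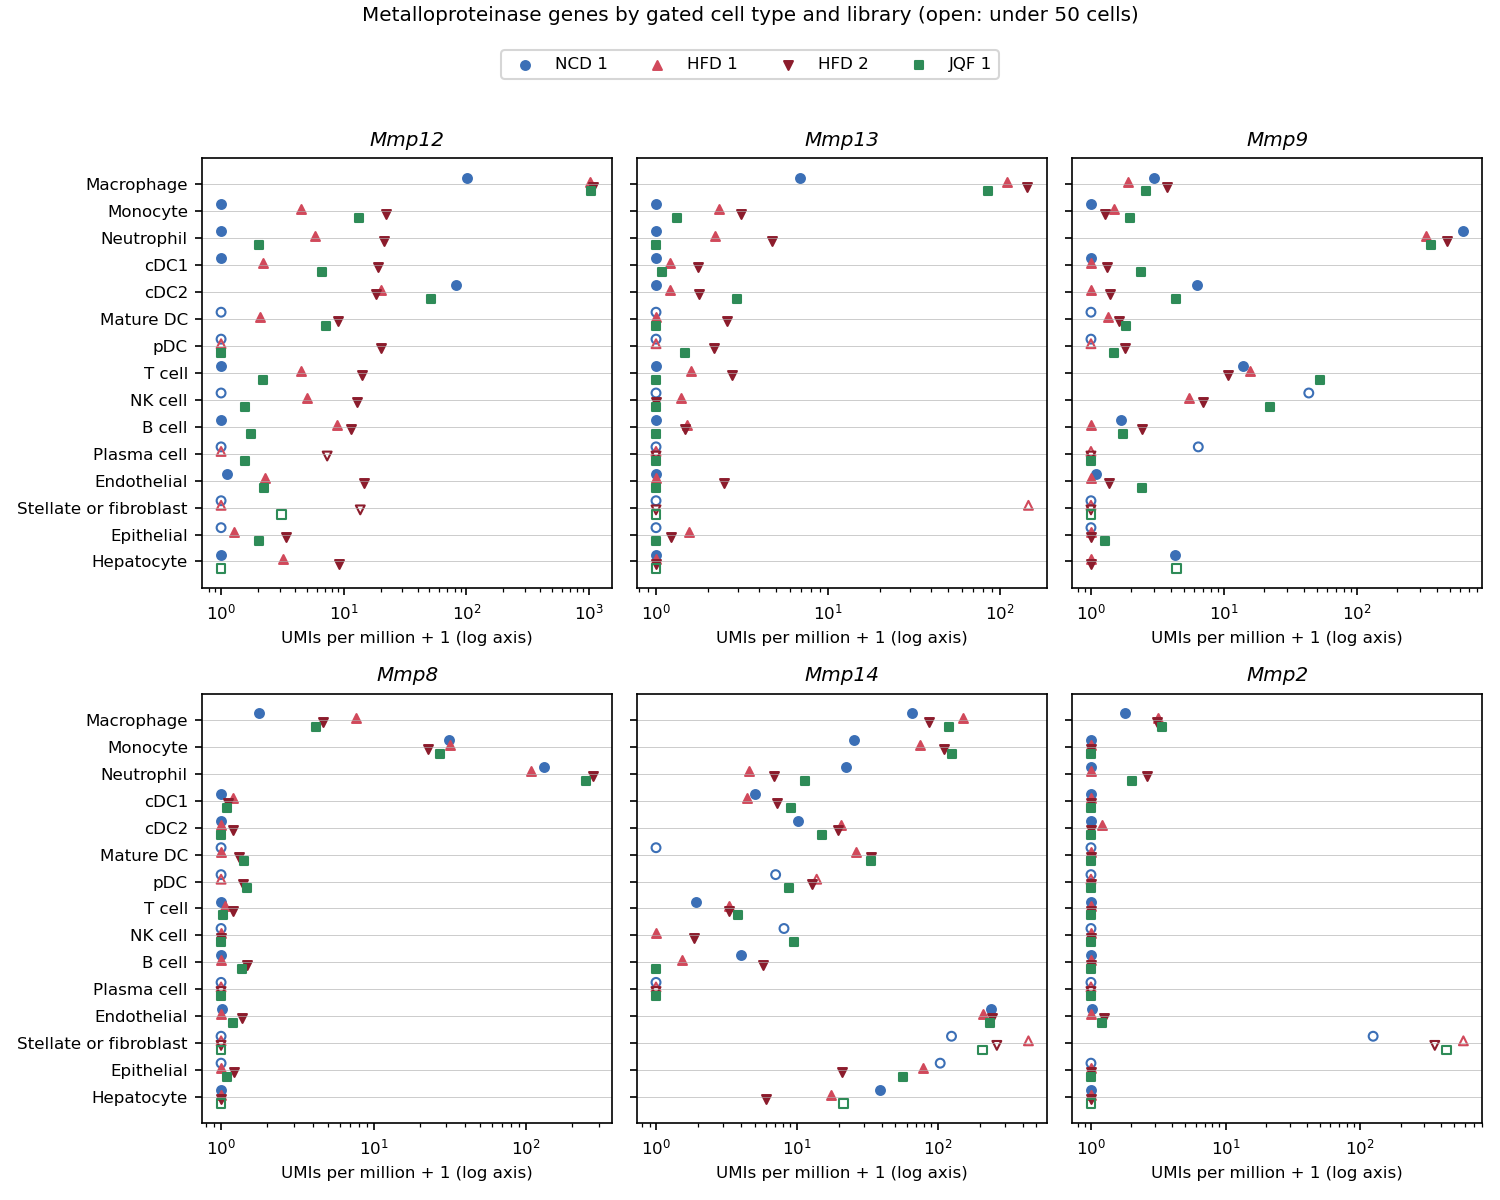
Levels of the proteases (CPM, log axis) in each gated type, with 1 point per library and colours for NCD, HFD and JQF; open symbols mark types with fewer than 50 cells in that library. Mmp12 in macrophages lay at 100 CPM in NCD 1 and between 1013 and 1086 CPM in the other 3 libraries.

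Kupffer cells, the resident macrophages of the liver, were an unequal part of the macrophages. Macrophages with 3 or more of 6 Kupffer cell markers (Clec4f, Timd4, Vsig4, Cd5l, Marco, Folr2) were 86.9% of macrophages in NCD 1 and 19.6%, 54.5% and 51.6% in HFD 1, HFD 2 and JQF 1. Within these Kupffer-marked cells alone, Mmp12 was at 114, 1228, 1299 and 1740 CPM. HFD exceeded NCD by 3.51 ± 0.32 on the log2 scale (adjusted p = 1.89e-05, where 20.4% of genes were called), and JQF differed from HFD by 0.45 (adjusted p = 0.488). The difference between this value and that over all macrophages was not tested. Kupffer-marked macrophages that also had 3 or more of 6 lipid-associated markers, described next, were 4 of 133 in NCD 1, 55 of 120 in HFD 1, 255 of 1244 in HFD 2 and 47 of 239 in JQF 1, and their part in the value was not tested.

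In HFD 1, HFD 2 and JQF 1, Mmp12 was highest in macrophages with both Kupffer markers and lipid-associated markers (Trem2, Gpnmb, Spp1, Cd9, Fabp5, Lpl), the latter being genes known from macrophages that handle lipid and cell debris. In macrophages with 3 or more Kupffer markers and fewer than 3 lipid-associated markers, Mmp12 was at 115 CPM in NCD 1, 348 CPM in HFD 1, 595 CPM in HFD 2 and 756 CPM in JQF 1. With 3 or more of both lists it was at 1815, 3095 and 4013 CPM in HFD 1, HFD 2 and JQF 1, and at 86.2 CPM in the 4 cells of NCD 1. NCD 1 was the lowest library also among cells with Kupffer markers only, by a smaller margin than over all Kupffer-marked cells. With lipid-associated markers only it was at 1392, 1304 and 709 CPM, and with neither list at 271, 308 and 156 CPM.

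In HFD 1, Mmp12 went from 58.8 CPM in macrophages with none of the 6 lipid-associated markers to 1955 CPM with 5 and 1949 CPM with 6. In HFD 2 it went from 83.7 CPM with none to 2735 CPM with 5 and 2555 CPM with 6. JQF 1 went from 47.4 CPM with none to 2236 CPM with 3, and stood at 1779 CPM with 5 and at 399 CPM in the 12 cells with 6. The cells with more markers were also deeper, with medians of 6435 UMIs at 0 markers and 20670 at 6 in HFD 1, and the part of depth in the number of markers was not tested. In NCD 1, where 38 macrophages had 2 markers and 7 had more, Mmp12 was at 197, 5.47 and 226 CPM for 0, 1 and 2 markers, levels that rested on 1, 4 and 5 cells with Mmp12.

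**Figure D2:**
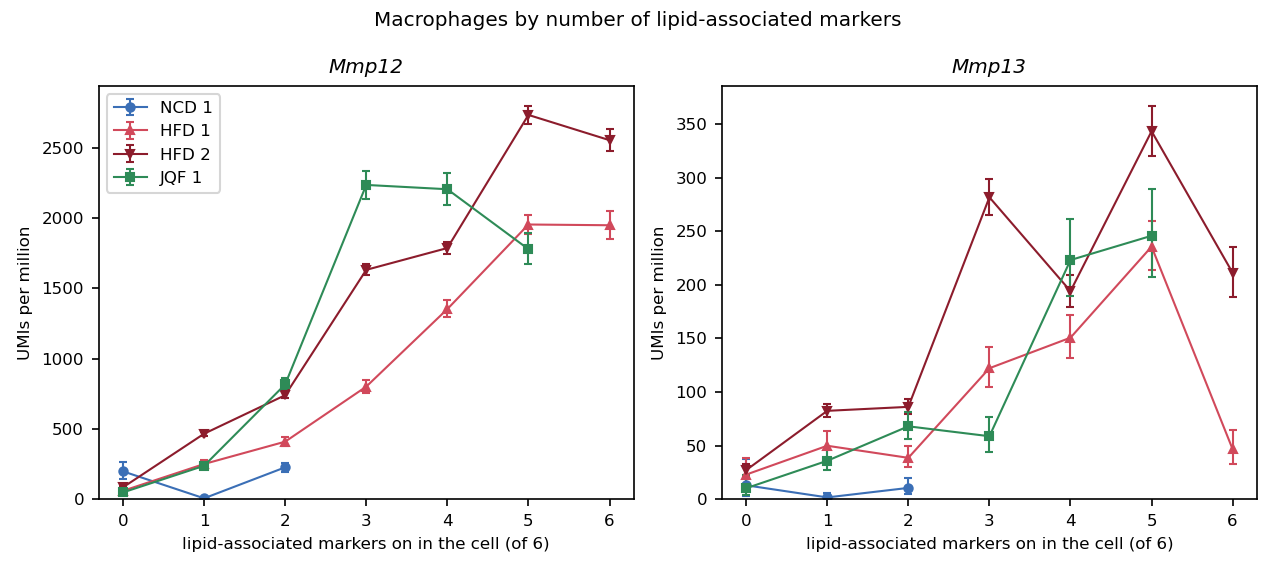
Mmp12 and Mmp13 levels (CPM) in macrophages by the number of lipid-associated markers on, from 0 to 6, per library; points rest on 20 or more cells and bars are exact Poisson 95% intervals, which cover counting error only. In both HFD libraries Mmp12 went from under 100 CPM with no marker to 1955 and 2735 CPM with 5.

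Mmp13, a collagenase that cuts fibrillar collagen, was also higher in macrophages after the high-fat diet. There it was at 5.88 CPM in NCD 1, 110 CPM in HFD 1, 144 CPM in HFD 2 and 84.2 CPM in JQF 1. All libraries of the high-fat diet lay above the chow library, by 4.51 ± 0.36 on the log2 scale for HFD over NCD (adjusted p = 0.0277), and JQF differed from HFD by −0.58 (adjusted p = 0.553). In Kupffer-marked macrophages alone the difference of HFD from NCD was 4.66 (adjusted p = 4.21e-06). Free Mmp13 was at 0.182, 27.3, 66.9 and 5.11 CPM, below the macrophage level in each library.

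Mmp13 sat largely in cells that also held Mmp12. Of macrophages with Mmp13, 71.9% in HFD 1, 78.3% in HFD 2 and 75.4% in JQF 1 also had Mmp12, against 34.4%, 35.7% and 28.9% of macrophages without Mmp13. In NCD 1 it was 4 of 7 cells against 5.48%. Cells with Mmp13 were deeper (medians of 15944, 13892 and 14076 UMIs against 11452, 10821 and 11665 in the 3 libraries), and the part of depth in this overlap was not tested. Over 47 sums of 1 type in 1 library, Mmp13 had the fourth highest Pearson correlation with Mmp12 of all genes (r = 0.85), behind C1qb (0.88), C1qa and C1qc, which encode complement C1q and are markers of the gate. The genes most like Mmp13 were Cxcl14 (0.92), Kcnj10, Siglec1, Fabp7 and C1qb. Sums of the same library and type share depth and macrophage content, and these correlations are a description.

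In monocytes Mmp12 was low. The level was 0 in 51 cells of NCD 1, 3.44 CPM in 582 cells of HFD 1, 21.1 CPM in 992 cells of HFD 2 and 12.4 CPM in 438 cells of JQF 1. HFD 2 stood above HFD 1, and the group difference did not pass (adjusted p = 0.278). The level that the floor of 3 UMIs gives in NCD 1 is 4.33 CPM, which lies between HFD 1 and HFD 2, so HFD 1 could not be told from the chow library at this depth. In JQF 1, 58 of the 77 UMIs came from 1 monocyte, and the difference of JQF from HFD was 0.035 with it and −1.01 without the top cell of each library (adjusted p = 0.997 and 0.746). Classical monocytes were at 3.85, 22.2 and 14.4 CPM in HFD 1, HFD 2 and JQF 1, and nonclassical monocytes at 1.11, 16.3 and 1.06 CPM.

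Mmp12 was also present in free RNA. In barcodes of at most 100 UMIs, which hold RNA outside cells, Mmp12 was at 16.6, 266, 525 and 67.8 CPM in NCD 1, HFD 1, HFD 2 and JQF 1. The monocyte level was 1.30%, 4.02% and 18.2% of that free level in HFD 1, HFD 2 and JQF 1, against 1.30%, 2.51% and 1.76% in T cells and 2.96%, 1.98% and 1.09% in B cells. In HFD 1 monocytes thus had no more Mmp12 than T cells, at 3.44 CPM in both. After thinning to 2000 UMIs, 0.694% (0.190 to 1.77) of monocytes and 0.599% (0.299 to 1.07) of T cells of HFD 1 had a UMI, 3.35% (2.31 to 4.67) and 3.02% (2.30 to 3.88) in HFD 2, and 0.460% (0.0557 to 1.65) and 0.145% (0.0473 to 0.339) in JQF 1. The intervals of monocytes and T cells overlapped in each library, and the difference between both types was not tested. Before thinning, monocytes and T cells were at 21.1 and 13.2 CPM in HFD 2. In JQF 1 they were at 12.4 and 1.19 CPM, where 1 monocyte held most of the UMIs.

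Mmp12 also passed the test in lymphocytes and endothelial cells, at levels of at most 13.6 CPM. T cells were at 0, 3.44, 13.2 and 1.19 CPM in NCD 1, HFD 1, HFD 2 and JQF 1, and against the floor of 3 UMIs in NCD 1 HFD was at least 24.0-fold higher, with 9.99-fold for HFD 1 alone and 38.3-fold for HFD 2 alone (adjusted p = 0.00941, where 14.7% of genes were called). B cells were at 0, 7.86, 10.4 and 0.741 CPM, at least 9.11-fold higher than the floor, with 7.78-fold and 10.3-fold for each HFD library alone (adjusted p = 0.0143, where 19.0% of genes were called), a call lost without the filter on low counts and without the top cells (adjusted p = 0.0880 and 0.0780). Endothelial cells were at 0.111, 1.26, 13.6 and 1.22 CPM, a log2 difference of 6.21 ± 0.88 (adjusted p = 1.16e-10, where 16.0% of genes were called) that was 3.26 without HFD 2.

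In endothelial cells JQF was below HFD by 2.97 ± 0.84 on the log2 scale (adjusted p = 0.0310, where 1.45% of genes were called). This rested on HFD 2, since without it the value was −0.0094, and over the alternatives its adjusted p ranged from 0.0310 to 1.00. In each of these 3 types HFD 2 was above HFD 1, as it was for free Mmp12, and the part of free RNA in these values was not tested. For endothelial cells this gap did not enter the p-values, as the spread was taken from all genes.

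**Figure D3:**
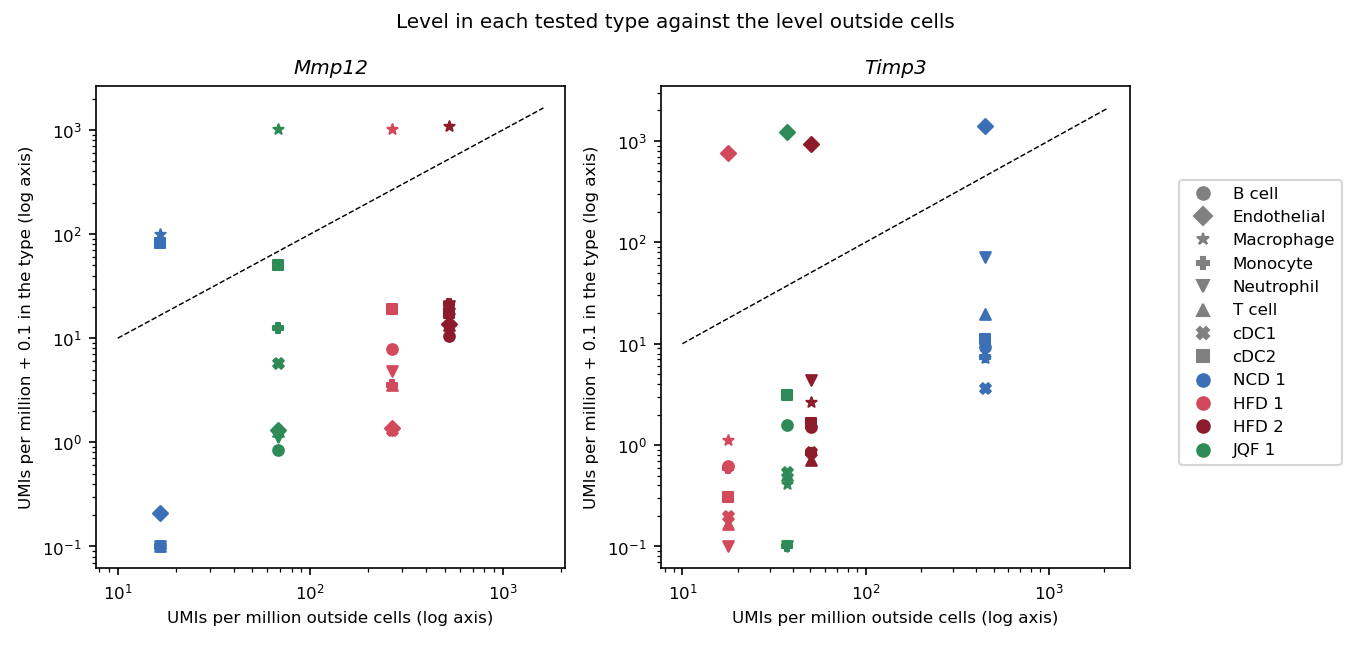
Level of Mmp12 and of Timp3 in each tested type (vertical, CPM plus 0.1, log axis) against the level outside cells (horizontal, CPM, log axis); colours are libraries, symbols are types, and the dashed line marks equal levels. Macrophages for Mmp12 and endothelial cells for Timp3 lie above the line in all 4 libraries, as does Mmp12 of cDC2 in NCD 1 (81.9 CPM).

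In type 2 conventional dendritic cells (cDC2), which present antigen to CD4 T cells, Mmp12 was lower in HFD. It was at 81.9 CPM in NCD 1, 19.0 CPM in HFD 1, 17.2 CPM in HFD 2 and 50.7 CPM in JQF 1, a difference of −2.35 ± 0.18 for HFD over NCD (adjusted p = 0.00409, where 16.7% of genes were called). A single NCD cell held 110 of the 125 UMIs of the 71 NCD cells. Without the top cell of each library the levels were 9.82, 13.1, 9.59 and 40.2 CPM and the difference was 0.022 (adjusted p = 0.974). The cDC2 with Mmp12 carried on average 1.36, 0.935, 0.568 and 1.04 of the 8 macrophage markers in NCD 1, HFD 1, HFD 2 and JQF 1, against 0.750, 0.444, 0.517 and 0.659 in cDC2 without it.

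Mmp9, gelatinase B, was highest in neutrophils, where it stood at 633, 330, 478 and 362 CPM in NCD 1, HFD 1, HFD 2 and JQF 1. The difference of HFD from NCD was −0.55 ± 0.33 (adjusted p = 0.383). T cells came next in the order of mean levels, with a range that overlapped that of NK cells. Their Mmp9 was at 12.9 CPM in NCD 1, 14.7 CPM in HFD 1, 9.80 CPM in HFD 2 and 52.2 CPM in JQF 1, so JQF 1 stood alone above the others. JQF exceeded HFD by 2.19 ± 0.24 on the log2 scale (n = 1 against 2, edgeR adjusted p = 0.00257, where 1.60% of genes in T cells were called), and HFD differed from NCD by −0.073 (adjusted p = 0.872). T cells supplied 20.0%, 27.3%, 12.3% and 66.2% of the Mmp9 UMIs of the 4 libraries and neutrophils 69.3%, 67.6%, 76.6% and 27.9%.

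The share of T cells with an Mmp9 UMI was 10.5% of 715, 7.00% of 1843, 4.58% of 1944 and 25.2% of 3445. With each cell thinned to 2000 UMIs it was 3.38% (exact binomial interval 2.17 to 4.98), 2.78% (2.08 to 3.64), 1.92% (1.36 to 2.64) and 9.34% (8.39 to 10.4). The interval of JQF 1 lay above the 3 others. In B cells, at median depths of 8018, 5251, 4794 and 6174 UMIs against 10670, 7398, 6701 and 8033 in T cells, 0 to 1 thinned cell per library had Mmp9, and 0.602%, 0%, 0.769% and 0.279% of unthinned cells. In no library did 1 T cell hold more than 4.5% of the Mmp9 UMIs of T cells.

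The ratio of Mmp9 to S100a8 and S100a9 was higher in T cells and NK cells than in neutrophils or free RNA in every library, and in B cells in 3 of the 4. Both S100 genes are markers of the neutrophil gate, and the part of the gate in the contrast with neutrophils was not tested. For every 100 UMIs of the neutrophil genes S100a8 and S100a9 together, T cells had 659, 88.4, 50.7 and 676 UMIs of Mmp9 in NCD 1, HFD 1, HFD 2 and JQF 1. Neutrophils had 2.64, 0.727, 0.753 and 0.919, and free RNA had 4.59, 1.18, 0.840 and 3.02. NK cells had 1800, 61.1, 26.9 and 148, from 1 to 26 UMIs of the S100 genes, and B cells had 40, 0, 4.48 and 14.3, from 0 to 3 UMIs of Mmp9. Mmp8, the other neutrophil member, had 0, 1, 3 and 1 UMIs in the T cells of the 4 libraries. Free Mmp9 was at 8.73, 14.8, 11.6 and 24.6 CPM, and was thus also highest in JQF 1. In B cells Mmp9 was at 0.673, 0, 1.42 and 0.741 CPM. The part of free RNA in the T cell levels was not tested.

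**Figure D4:**
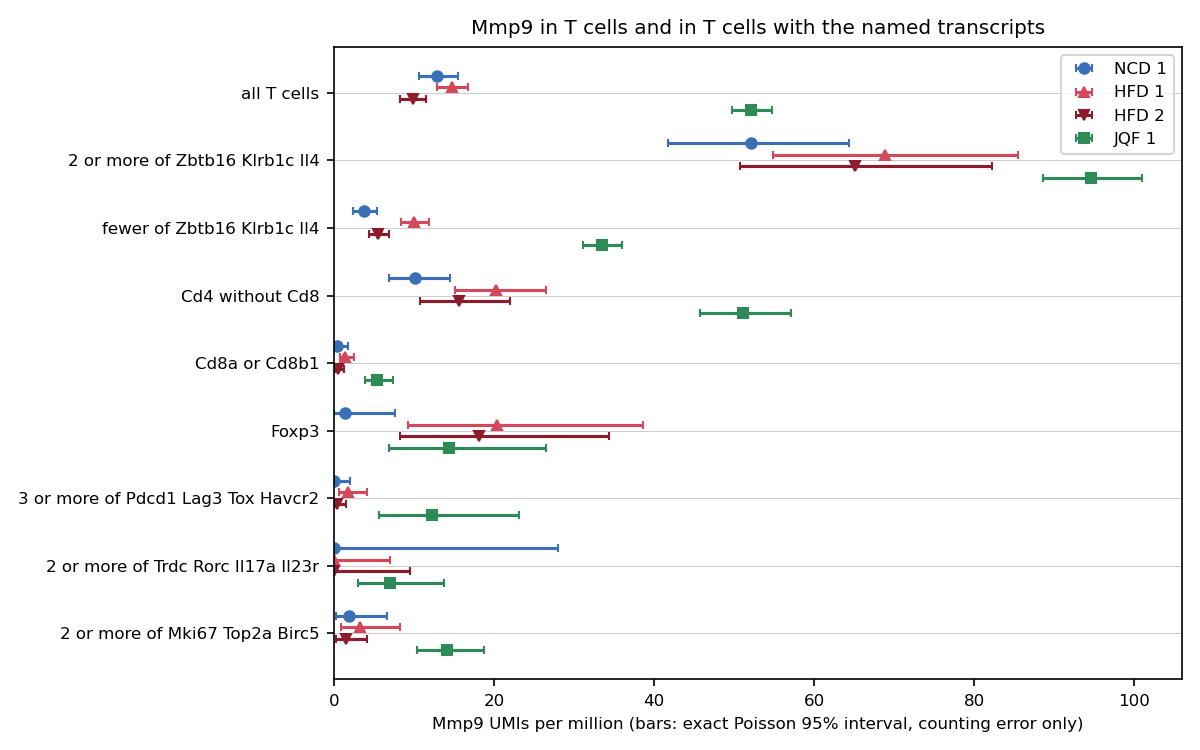
Mmp9 (CPM) in T cells and in classes of T cells by the transcripts named on the vertical axis, with 1 point per library and exact Poisson 95% intervals that cover counting error only. Over all T cells JQF 1 stood at 52.2 CPM and the other libraries between 9.80 and 14.7 CPM.

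Mmp9 was higher in T cells with at least 2 of Zbtb16, Klrb1c and Il4, genes known from innate-like T cells, than in the rest in every library. These cells were 21.0%, 6.78%, 7.15% and 28.1% of T cells in NCD 1, HFD 1, HFD 2 and JQF 1 and had Mmp9 at 52.1, 68.9, 65.0 and 94.6 CPM. Within them JQF exceeded HFD by 0.59 ± 0.22 (adjusted p = 0.207, where 2.29% of genes were called). The remaining T cells had Mmp9 at 3.69, 10.0, 5.47 and 33.4 CPM, and there JQF exceeded HFD by 2.20 ± 0.33 (adjusted p = 0.0462, where 0.546% of genes were called). Cells of the first kind with fewer than 2 of these transcripts detected would count among the remaining T cells. Their part in the value there was not tested, nor was the difference between both classes.

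Among other classes, T cells with Cd4 and without Cd8 had Mmp9 at 10.1, 20.2, 15.7 and 51.2 CPM, and T cells with Cd8a or Cd8b1 at 0.309, 1.40, 0.523 and 5.41 CPM. T cells with Foxp3, the factor of regulatory T cells, were at 1.37, 20.3, 18.1 and 14.4 CPM. The Cd4 class was above the Cd8 class in each library, and JQF 1 was the highest library in the Cd4 and Cd8 classes and not in the Foxp3 class. NK cells had 42.5 CPM in the 37 cells of NCD 1 and 4.47, 5.92 and 21.2 CPM in HFD 1, HFD 2 and JQF 1. They were not tested.

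Mmp8, neutrophil collagenase, was at 130, 107, 276 and 248 CPM in neutrophils of NCD 1, HFD 1, HFD 2 and JQF 1. HFD 1 was the lowest and HFD 2 the highest library, and neither comparison passed (HFD over NCD 0.65, adjusted p = 0.516, and JQF over HFD 0.34, adjusted p = 1.00). In monocytes it was at 30.3, 30.7, 21.6 and 26.3 CPM, with 54.8, 35.8, 25.9 and 30.4 CPM in the classical ones. Mmp8 in monocytes did not pass either (−0.30, adjusted p = 0.572).

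Mmp14, which activates pro-MMP2 and cuts collagen at the cell surface, was in endothelial cells at 238, 209, 243 and 235 CPM in NCD 1, HFD 1, HFD 2 and JQF 1 (HFD over NCD −0.22, adjusted p = 0.673). In monocytes it was at 24.5, 74.0, 110 and 124 CPM, with the chow library lowest. HFD exceeded NCD there by 1.85 ± 0.43 (adjusted p = 0.0367, where 12.9% of genes in monocytes were called), which rested on 17 UMIs in 51 NCD cells. The call was lost with doublets kept (adjusted p = 0.0560). Classical monocytes were at 36.5, 65.5, 108 and 117 CPM and nonclassical monocytes at 9.70, 123, 120 and 162 CPM, with NCD 1 lowest in both.

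In macrophages Mmp14 was at 64.3, 150, 85.8 and 118 CPM, and HFD over NCD did not pass (0.94, adjusted p = 0.166). Macrophages with lipid-associated markers only had 172, 146 and 222 CPM in HFD 1, HFD 2 and JQF 1, against 73.5, 33.0 and 30.6 CPM in those with Kupffer markers only. The first class was above the second in each of these 3 libraries. Macrophages with neither list had 156, 129 and 149 CPM, also above those with Kupffer markers only. Those with both lists had 124, 75.9 and 77.5 CPM. With 0 and with 6 lipid-associated markers Mmp14 was at 150 and 151 CPM in HFD 1. It was at 60.5 and 104 CPM in HFD 2, and at 50.7 and 241 CPM in JQF 1. Stellate cells and fibroblasts were few (18, 2, 20 and 36 cells) and had Mmp14 at 124, 438, 261 and 207 CPM.

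Mmp2, gelatinase A, was in the same few stellate cells and fibroblasts at 124, 585, 358 and 435 CPM. Macrophages, the only type in which it could be tested, had 0.785, 2.13, 2.09 and 2.38 CPM (HFD over NCD 1.49, adjusted p = 0.239). With 2 to 36 stellate cells per library the levels could not be compared between groups.

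Timp3, the inhibitor that stays bound to the matrix, had 99.1%, 44.5%, 89.6% and 77.7% of its UMIs in endothelial cells of NCD 1, HFD 1, HFD 2 and JQF 1, and epithelial cells held 53.0% in HFD 1. Endothelial cells had it at 1410 CPM in NCD 1, 755 CPM in HFD 1, 936 CPM in HFD 2 and 1223 CPM in JQF 1. Both HFD libraries were below the NCD and JQF libraries. HFD fell by 0.90 ± 0.26 on the log2 scale against NCD (adjusted p = 0.00709), and passed under every alternative that gave a test, at adjusted p of 0.00211 to 0.0366. JQF exceeded HFD by 0.54 ± 0.27 and did not pass (adjusted p = 0.668). The genes most like Timp3 over the 47 sums were Meis2 (r = 0.98), Igfbp7, Rhoj, Amotl1 and Tspan7.

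Timp3 was also lower in HFD in 4 types that had little of it. T cells were at 19.6, 0.0662, 0.608 and 0.407 CPM (−5.83, adjusted p = 0.00112), and neutrophils at 71.6, 0, 4.24 and 0 CPM (−4.87, adjusted p = 0.00937, where 4.83% of genes were called). B cells were at 9.09, 0.524, 1.42 and 1.48 CPM (−3.19, adjusted p = 0.0497), and cDC2 at 11.1, 0.204, 1.57 and 3.03 CPM (−3.76, adjusted p = 0.0497). NCD 1 was the highest library in each. Free Timp3 was at 450 CPM in NCD 1 and at 17.7, 50.6 and 37.4 CPM in the others, and endothelial cells were 60.7% of NCD cells, and the part of free RNA in these 4 values was not tested. The calls in B cells and cDC2 were lost without the filter on low counts (adjusted p = 0.130 and 0.214). Without HFD 1 and without HFD 2 the differences were −4.95 and −8.12 in T cells, −2.66 and −4.12 in B cells, and −2.95 and −5.77 in cDC2. In neutrophils it was −3.98 without HFD 1, and HFD 1 held 0 UMIs of Timp3, so a fold without HFD 2 would depend on the prior count of the fit. The values without HFD 2 in T cells, B cells and cDC2 rested on 1 UMI each in HFD 1.

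**Figure D5:**
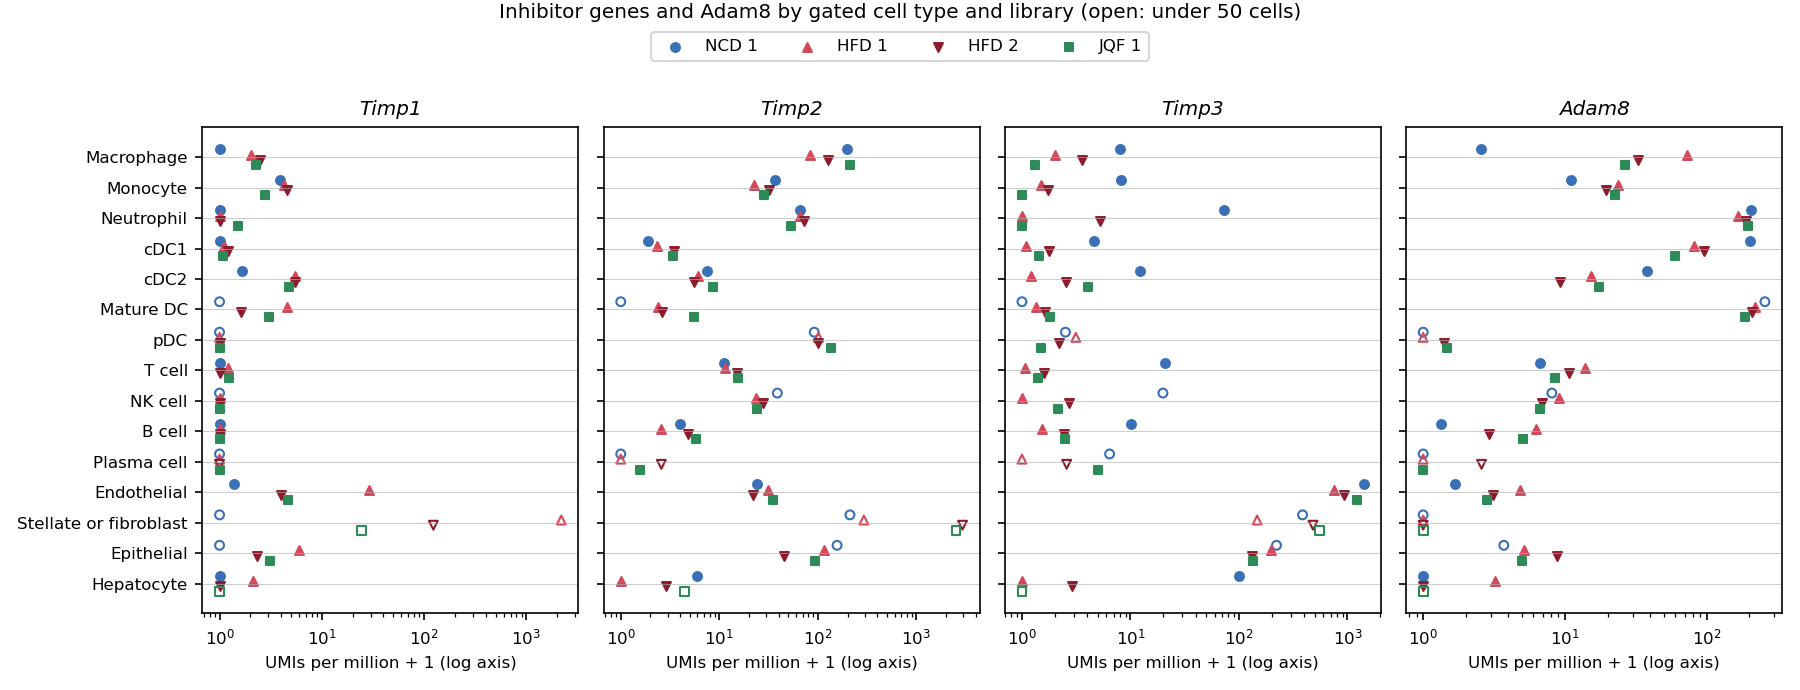
Levels of the inhibitors and Adam8 (CPM, log axis) in each gated type, with 1 point per library and colours for NCD, HFD and JQF; open symbols mark fewer than 50 cells. Timp3 in endothelial cells lay at 755 and 936 CPM in the HFD libraries and at 1410 and 1223 CPM in NCD 1 and JQF 1.

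Timp1, a soluble inhibitor known from stellate cell activation, was sparse. In endothelial cells it was at 0.379, 27.8, 2.99 and 3.66 CPM in NCD 1, HFD 1, HFD 2 and JQF 1, and HFD exceeded NCD by 4.80 ± 0.96 (adjusted p = 1.23e-05). In HFD 1, 12 of its 22 endothelial UMIs were in 1 cell. The value was 2.83 without HFD 1 and 5.98 without HFD 2. The gap between HFD 1 and HFD 2 did not enter the p-value, as the spread of endothelial cells was taken from all genes. Stellate cells and fibroblasts had 0, 2192, 122 and 23.2 CPM, where the second value comes from 2 cells.

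By mean level Timp2, a soluble inhibitor, was highest in the few stellate cells and fibroblasts (211, 292, 2936 and 2521 CPM) and next in macrophages, whose range overlapped that of plasmacytoid dendritic cells. In macrophages it was at 197, 82.3, 125 and 210 CPM, so that both HFD libraries were below NCD 1 and JQF 1. Neither comparison passed over all macrophages (HFD over NCD −0.84 ± 0.31, adjusted p = 0.140, and JQF over HFD 1.04 ± 0.30, adjusted p = 0.465). In Kupffer-marked macrophages, at 209, 94.6, 141 and 200 CPM, HFD differed from NCD by −0.78 ± 0.26 (adjusted p = 0.0494). Plasmacytoid dendritic cells had 90.9, 100, 100 and 135 CPM and neutrophils 65.1, 64.7, 71.5 and 52.8 CPM.

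Adam8, known from leukocytes, was highest in mature dendritic cells and neutrophils. Mature dendritic cells, 11 of them in NCD 1, had 257, 219, 208 and 187 CPM, and neutrophils had 203, 166, 189 and 193 CPM (HFD over NCD −0.096, adjusted p = 0.896). In type 1 conventional dendritic cells (cDC1) it was at 201, 79.8, 95.1 and 59.3 CPM, and HFD fell by 1.32 ± 0.20 against NCD (adjusted p = 0.0405, where 9.66% of genes were called). In cDC2 it was at 36.7, 14.3, 8.22 and 16.4 CPM, a difference of −1.89 ± 0.36 (adjusted p = 0.0264). The cDC2 call was lost with doublets kept, with DESeq2 and without the filter on low counts (adjusted p of 0.101, 0.0677 and 0.180).

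In macrophages Adam8 was at 1.57, 72.2, 31.9 and 25.7 CPM in NCD 1, HFD 1, HFD 2 and JQF 1. Over all macrophages this just missed the threshold (5.08 ± 0.97, adjusted p = 0.0510), and in Kupffer-marked macrophages it passed (5.88 ± 1.13, adjusted p = 0.00287) at 0.895, 93.7, 21.8 and 11.5 CPM, where NCD 1 held 2 UMIs in 1 cell and HFD 1 was far above HFD 2. By number of lipid-associated markers, Adam8 went from 8.17 and 2.33 CPM with none to 155 and 212 CPM with 6 in HFD 1 and HFD 2. HFD 1 was at 178 CPM with 5. JQF 1 went from 3.38 CPM with none to 94.5 CPM with 5, and stood at 49.0 CPM in the 12 cells with 6. NCD 1 had 4 UMIs of Adam8 in its macrophages. Free Adam8 was at 10.9, 59.1, 43.2 and 24.1 CPM, the same order of libraries as in macrophages, whose level was 14.4%, 122%, 74.0% and 107% of it, and the part of free RNA in the macrophage values was not tested.

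Other genes of matrix turnover were counted from lists, which were chosen with earlier results of these data known. Their pairs could also pass the filter on low counts through the group where they were high. The shares below thus describe the tested pairs and are no test of the lists. Of 15 other metalloproteinases, 6 could be tested, and 3 of 18 pairs of gene and type (16.7%) were higher and 1 (5.56%) lower in HFD than in NCD, where 5.43% of all tests of all genes were higher and 7.60% lower. Mmp19 in monocytes was at 0, 35.1, 34.8 and 25.5 CPM and Mmp27 in macrophages at 20.4, 37.7, 37.6 and 23.1 CPM. Of the ADAM and ADAMTS genes, 5 of 64 pairs (7.81%) were higher, near the 5.43% of all tests, and 12 (18.8%) lower against 7.60%, among them the endothelial Adam12 (89.2, 1.26, 9.10 and 14.2 CPM) and Adamts1 (414, 162, 133 and 115 CPM), Adam19 in cDC1 (997, 196, 274 and 329 CPM) and, higher, Adam15 in macrophages (9.02, 27.2, 21.9 and 31.5 CPM).

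Of the activators, other inhibitors and partners, 6 of 72 pairs (8.33%) were higher against 5.43% of all tests, and 10 (13.9%) lower against 7.60%. Among the lower ones were the urokinase receptor Plaur in cDC2 (198, 40.2, 25.8 and 94.4 CPM), Cd44, which can hold MMP9 at the surface, in cDC1 (3117, 352, 702 and 918 CPM) and Serpinb2 in monocytes (52.0 CPM in NCD 1, 10.5 CPM in HFD 1 and 12.3 CPM in HFD 2). Other matrix-degrading proteases had 17 of 61 pairs (27.9%) higher against 5.43% of all tests and 2 (3.28%) lower against 7.60%, among them the cathepsins Ctsh (2.59, 124, 31.9 and 23.0 CPM) and Ctss (5.29, 35.4, 42.2 and 17.1 CPM) in endothelial cells, Ctsb in neutrophils (142, 588, 557 and 564 CPM) and Ctsd in monocytes (104, 350, 418 and 477 CPM).

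Between JQF and HFD, 1 of the 215 pairs of these lists was higher and 3 were lower, where 0.283% and 0.229% of all tests were. They were Adamts9 in endothelial cells (−1.70, adjusted p = 3.77e-07), Furin, a protease that activates MMP14, in T cells (1.10, adjusted p = 0.0131), and Ctsh and Ctss in endothelial cells (−1.53 and −1.21, adjusted p = 0.000120 and 0.0393). Endothelial Adamts9 stood at 181, 272, 134 and 59.4 CPM in NCD 1, HFD 1, HFD 2 and JQF 1. Endothelial Ctsh stood at 124 CPM in the 106 cells of HFD 1, against 31.9 CPM in HFD 2 and 23.0 CPM in JQF 1. The gap between HFD 1 and HFD 2 did not enter these endothelial p-values, as the spread was taken from all genes. The part of HFD 1 in the Adamts9 and Ctsh values, and that of free RNA in both cathepsin values, were not tested. Furin in T cells was at 42.0, 47.0, 38.7 and 85.4 CPM in NCD 1, HFD 1, HFD 2 and JQF 1, with JQF 1 highest, as for Mmp9.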

How the data were processed

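Cells of 4 mouse liver libraries were sequenced with a droplet 3′ chemistry. The authors deposited filtered and unfiltered UMI counts per gene and barcode; the submitters' processing notes name Cell Ranger 6.0.1, Seurat 4.0.3 and mm10, while the filtered matrices carry version 7.0.0, so whether intronic reads were counted is unsettled. The 10 members and all lists were chosen with earlier results of these data known.

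Filtered barcodes with at least 500 genes and at most 20% mitochondrial UMIs were used. A marker was on when its UMIs exceeded the 99% Poisson quantile of free RNA, taken as 10% of the UMIs of a cell with the composition of barcodes of at most 100 UMIs. A cell took the type with the highest share of its markers on, with at least 3 on; this scoring was set after the files were seen. Cells with 3 or more markers and at least 50% of the list of another lineage were removed as doublets (121 to 340 per library). Kept UMIs were 65034488 to 100987370 per library.

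UMIs were summed per library and type and tested in types with 50 or more cells in every library. The test was edgeR 4.0.16 (R 4.3.3) quasi-likelihood with TMM scaling and Benjamini-Hochberg adjustment over all genes of a type, at 0.05. It was also run on simulated macrophage sums with the same spread in all libraries. That run could not check whether NCD and JQF share the spread of the HFD pair. Only the HFD pair gives a spread, which may be technical. The fit drew the spread of each gene towards a trend over all genes of the type. In endothelial cells the prior degrees of freedom were infinite, so a gene's own HFD spread had no weight. They were 109 in T cells with 2 or more of Zbtb16, Klrb1c and Il4, and 3.36 to 12.5 in the other fits. P-values measure no more than this spread. Values after ± are approximate SEs, calculated back from the test as the absolute log2 fold change over the square root of its F statistic. A fold against a library at 0 was bounded with a floor of 3 UMIs per library. Shares were computed after thinning cells to 2000 UMIs; exact intervals (scipy 1.17.1) cover counting error only. Alternatives were a stricter gate, doublets kept, all called barcodes, library totals, DESeq2 1.42.0, no filter on low counts, leaving out cells or libraries, and other thinning; fits of Kupffer-marked macrophages, of T cell classes and without top cells were added after seeing the data. All members were named; of each list, at most 4 called genes of largest change with a mean of 20 CPM or more; and as most alike, the 5 genes of highest Pearson correlation of log2(CPM + 1) among genes with at least 200 UMIs.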

Additional observations from a re-analysis of the deposited data

Results flagged for a closer look

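The difference of Mmp12 between HFD and NCD did not have 1 direction over cell types. On the log2 scale of the edgeR fit it was 3.46 in macrophages, 6.21 in endothelial cells, 7.43 in B cells and 10.17 in T cells, and −2.35 in cDC2. The values in B and T cells are set against an NCD library at 0 and depend on the prior count of the fit. The difference between the types was not tested. The cDC2 value rested on 1 NCD cell with 110 UMIs.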

How the results depend on the processing

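Between HFD and NCD, 11 to 20 pairs of member and type were called under the 8 alternatives against 15, with 10 to 15 of the calls shared. Between JQF and HFD, 2 pairs became 1 with DESeq2, 6 without the filter on low counts and 1 without the top cell of each member (the last chosen after seeing the data). Without the filter, Mmp12 in monocytes passed between HFD and NCD (9.26, adjusted p = 0.000149), a fitted value against an NCD library at 0 that depends on the prior count and is no bound. Without the top cells, Mmp12 in cDC2 was 0.022. Chosen after seeing the data, Mmp9 of JQF over HFD was 0.59 in T cells with 2 or more of Zbtb16, Klrb1c and Il4 and did not pass. The causes were not tested.

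Leaving out either HFD library gave values with no test. Mmp9 in T cells ranged from −0.35 to 0.14 for HFD over NCD and from 1.99 to 2.47 for JQF over HFD. Mmp12 of JQF over HFD ranged from −0.077 to 0.072 in macrophages and from −0.68 to 2.03 in monocytes, and of HFD over NCD from 3.38 to 3.53 in macrophages. The NCD and JQF libraries could not be left out.

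With cells thinned to 1000 UMIs and unthinned, shares of T cells with Mmp9 were 1.12% and 10.5% in NCD 1, 1.30% and 7.00% in HFD 1, 0.977% and 4.58% in HFD 2, and 5.83% and 25.2% in JQF 1. Shares of macrophages with Mmp12 were 3.29% and 7.84% in NCD 1, 24.8% and 42.3% in HFD 1, 25.6% and 45.3% in HFD 2, and 19.3% and 35.9% in JQF 1. No paired analysis was possible, because the replicate numbers count libraries within a group and do not link mice across groups.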
